A study of Mus musculus with 13 samples.

Results

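The 10 genes described here are the CDK inhibitors Cdkn1a, Cdkn1b and Cdkn1c, the p53 genes Trp53, Mdm2, Trp53inp1 and Ccng1, and the Gadd45 genes Gadd45a, Gadd45b and Gadd45g, out of 19737 genes measured in mouse microglia. They were found by gene symbol, and the set was selected on measured FPKM values, because Cdkn1a and Gadd45b were higher in the PKR knockout libraries, so the values of the 10 genes in those libraries are given as a description, with no test, while other genes were tested there. Microglia are the resident macrophages of the brain, and their RNA was sequenced after removal of ribosomal RNA in 13 libraries. Wild type animals with the vector AAV PHP.eB-EGFP gave 3 libraries (WT EGFP), 5xFAD animals with the same vector gave 2 (5xFAD EGFP), 5xFAD animals with AAV PHP.eB-circPOLR2A gave 4 (5xFAD circRNA), and 5xFAD animals with PKR knockout gave 4 (5xFAD PKR KO). 5xFAD is a transgenic mouse model of Alzheimer's disease, and PKR, encoded by Eif2ak2, is a kinase activated by double-stranded RNA. All 3 5xFAD groups share the transgenes, no vector is named for the PKR KO libraries, and age and sex are not given in the labels. The treatment labels of the circRNA libraries carry the number pairs 9 and 10, 9 and 11, 9 and 12, and 9 and 13, and it could not be worked out whether the 4 had identical constructs. The labels do not say that the libraries came from separate animals, so p-values measure the spread between these samples, which may be technical. With 2 libraries, 5xFAD EGFP is the smallest group, and each comparison with it rests on those 2.

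p53, encoded by Trp53, is a transcription factor that is held at a low level by the ubiquitin ligase MDM2 and accumulates after DNA damage and other stress. It switches on genes that stop the cell cycle, repair DNA or start cell death, among them Cdkn1a, Mdm2, Ccng1, Trp53inp1 and Gadd45a. p21, encoded by Cdkn1a, binds and inhibits cyclin-dependent kinases, and its relatives p27 (Cdkn1b) and p57 (Cdkn1c) do the same. The GADD45 proteins bind and activate the kinase MAP3K4 upstream of p38 and JNK, and Gadd45b is also induced by cytokines through NF-kappaB. Both p21 and GADD45 proteins can be induced without p53, and in immune cells Cdkn1a and Gadd45b respond to inflammatory signals.

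The sequences before the starts of Cdkn1a, Gadd45a and Gadd45b are shown because these 3 genes were higher in 5xFAD than in wild type microglia, and that of Gadd45g because it did not pass that test. Each is the part of the 250 bases before a RefSeq transcript start (GRCm38.p6) that lies in no exon of the same strand, written 5′ to 3′ along the gene. RefSeq windows were matched for 8 of the 10 genes, with 2 starts for Cdkn1a. Capitals mark matches to the p53 half-site, TATAAA or CACGTG, and no window shown held the AP-1 motif TGANTCA or the kappaB consensus.
Cdkn1a (chr17:29090729-29090975, plus strand): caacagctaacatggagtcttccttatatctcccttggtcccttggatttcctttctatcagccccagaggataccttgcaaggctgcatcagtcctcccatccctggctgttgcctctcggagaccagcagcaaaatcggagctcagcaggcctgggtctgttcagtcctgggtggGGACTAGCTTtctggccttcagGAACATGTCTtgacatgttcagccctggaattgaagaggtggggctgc
Gadd45a (chr6:67037458-67037657, minus strand): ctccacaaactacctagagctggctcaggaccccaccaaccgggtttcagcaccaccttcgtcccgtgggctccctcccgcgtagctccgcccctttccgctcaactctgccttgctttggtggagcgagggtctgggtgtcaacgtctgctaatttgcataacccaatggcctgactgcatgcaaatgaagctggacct
Gadd45b (chr10:80929841-80930072, plus strand): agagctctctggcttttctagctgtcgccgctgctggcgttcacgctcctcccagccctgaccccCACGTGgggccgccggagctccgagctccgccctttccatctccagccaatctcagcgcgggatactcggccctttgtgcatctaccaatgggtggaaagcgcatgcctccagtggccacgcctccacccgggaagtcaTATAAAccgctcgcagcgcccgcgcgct
Gadd45g (chr13:51846425-51846674, plus strand): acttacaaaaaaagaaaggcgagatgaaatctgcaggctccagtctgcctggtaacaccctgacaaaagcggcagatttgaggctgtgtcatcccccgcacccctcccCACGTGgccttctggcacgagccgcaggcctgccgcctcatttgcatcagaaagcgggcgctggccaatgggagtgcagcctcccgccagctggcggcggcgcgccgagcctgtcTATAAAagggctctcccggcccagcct

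The Cdkn1a window held 2 exact p53 half-sites, at 73 and 51 bases before the start. The second of these opened a pair of adjacent half-sites, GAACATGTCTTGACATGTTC, in which 19 of 20 letters matched the p53 consensus. Over 32851 RefSeq windows of 250 bases, searched on both strands, 7.13% held an exact half-site and 0.0761% held an adjacent pair matching at 19 or more letters. The second Cdkn1a start, 2790 bases downstream, held none of the motifs searched. Gadd45b and Gadd45g both held TATAAA, which is in 12.4% of all windows, and the E-box CACGTG, which is in 6.02%. The Gadd45a window, of 200 bases, held none of these motifs, and the rest of that gene was not searched. For comparison, the kappaB consensus was in 3.90% of all windows and TGANTCA in 6.75%. A match describes letters and is not a measured binding site.

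Expression is given as FPKM, fragments scaled to the gene's length and to the library's fragments, which compares genes per length. Depth, recovered from the steps between low FPKM values, was 45.2 M to 70.0 M (mega) fragments a library, and the PKR KO group had the highest mean at 64.4 ± 5.86 M (SD, n = 4). The members rested on 50 to 2573 fragments a library, so counting error alone reached 14.1% for Gadd45a in WT EGFP replicate 1. Eif2ak2, the gene named in the knockout, was at 3.35, 4.61, 3.31 and 4.16 FPKM in PKR KO. It was at 6.49 and 6.59 FPKM in 5xFAD EGFP, 7.37 to 8.11 FPKM in 5xFAD circRNA, and 5.18, 5.23 and 4.14 FPKM in WT EGFP. PKR KO thus lay below every other 5xFAD library and overlapped wild type, with reads of the gene still present. Against 5xFAD EGFP the Eif2ak2 difference was −0.64 (log2 of FPKM + 1, SE 0.11, limma adjusted p = 0.0644), and against 5xFAD circRNA it passed the test (adjusted p = 0.00147). The Eif2ak2 difference from wild type was −0.27 (SE 0.10, limma adjusted p = 0.0486), which passed the test although the libraries overlapped. All 10 microglial markers were detected in every group, with summed levels of 2758 to 4732 FPKM over the 13 libraries. WT EGFP replicate 3 stood apart, with the lowest microglial sum and the highest sums of oligodendrocyte, neuronal and astrocyte markers.

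Cdkn1a (chr17:29090976-29100727, mm10, plus strand) formed 3 levels across the groups. It was at 2.93, 2.26 and 2.46 FPKM in WT EGFP, 4.60 and 4.64 FPKM in 5xFAD EGFP, 4.07, 5.43, 4.80 and 4.22 FPKM in 5xFAD circRNA, and 9.69, 8.27, 10.6 and 7.47 FPKM in PKR KO. The wild type libraries were the lowest 3 and the PKR KO libraries the highest 4 of the 13, and the other two groups overlapped each other between them. Cdkn1a rose in 5xFAD EGFP against wild type from 2.55 ± 0.35 (SD, n = 3) to 4.62 ± 0.03 FPKM (SD, n = 2), a ratio of 1.81. The difference on the log2(FPKM + 1) scale was 0.67 (SE 0.14, limma adjusted p = 0.00705). It also rose in 5xFAD circRNA against wild type, by 0.66 (SE 0.11, limma adjusted p = 0.00115). With either 5xFAD EGFP library left out, the Cdkn1a difference from wild type was 0.67 and 0.66 and did not pass (limma adjusted p = 0.0528 without replicate 1 and 0.0641 without replicate 2). Each such fit, here and for other genes, leaves 1 library in the group, which is assumed to vary as the other groups do, since they alone supply the spread. In PKR KO the mean was 9.00 ± 1.39 FPKM (SD, n = 4), 1.95 times that in 5xFAD EGFP and 3.53 times that in wild type.

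The other two inhibitors of this family did not share this order. Cdkn1b (p27; chr6:134920401-134925513, plus strand) stayed within 6.26 to 9.35 FPKM in all 13 libraries, and its groups overlapped in each comparison. Cdkn1c (p57; chr7:143458339-143461050, minus strand), an imprinted gene, was at 8.54, 6.74 and 4.83 FPKM in WT EGFP and 3.44 and 2.63 FPKM in 5xFAD EGFP. It was at 4.33, 2.71, 4.46 and 6.53 FPKM in 5xFAD circRNA and 3.65, 1.80, 3.57 and 2.19 FPKM in PKR KO. Its wild type libraries all lay above those of 5xFAD EGFP and PKR KO and overlapped those of 5xFAD circRNA. The Cdkn1c difference of −0.91 (SE 0.29) in 5xFAD EGFP against wild type did not pass the test (limma adjusted p = 0.0590), and it passed without WT EGFP replicate 3 (limma adjusted p = 0.0262) but not without any other single library of the 2 groups (limma adjusted p = 0.109 to 0.335). It also passed with quantile normalization, median-ratio scaling and the same FPKM sum (limma adjusted p = 0.0359, 0.0496 and 0.0172). In PKR KO the difference from wild type was −1.02 (SE 0.25).

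**Figure D1:**
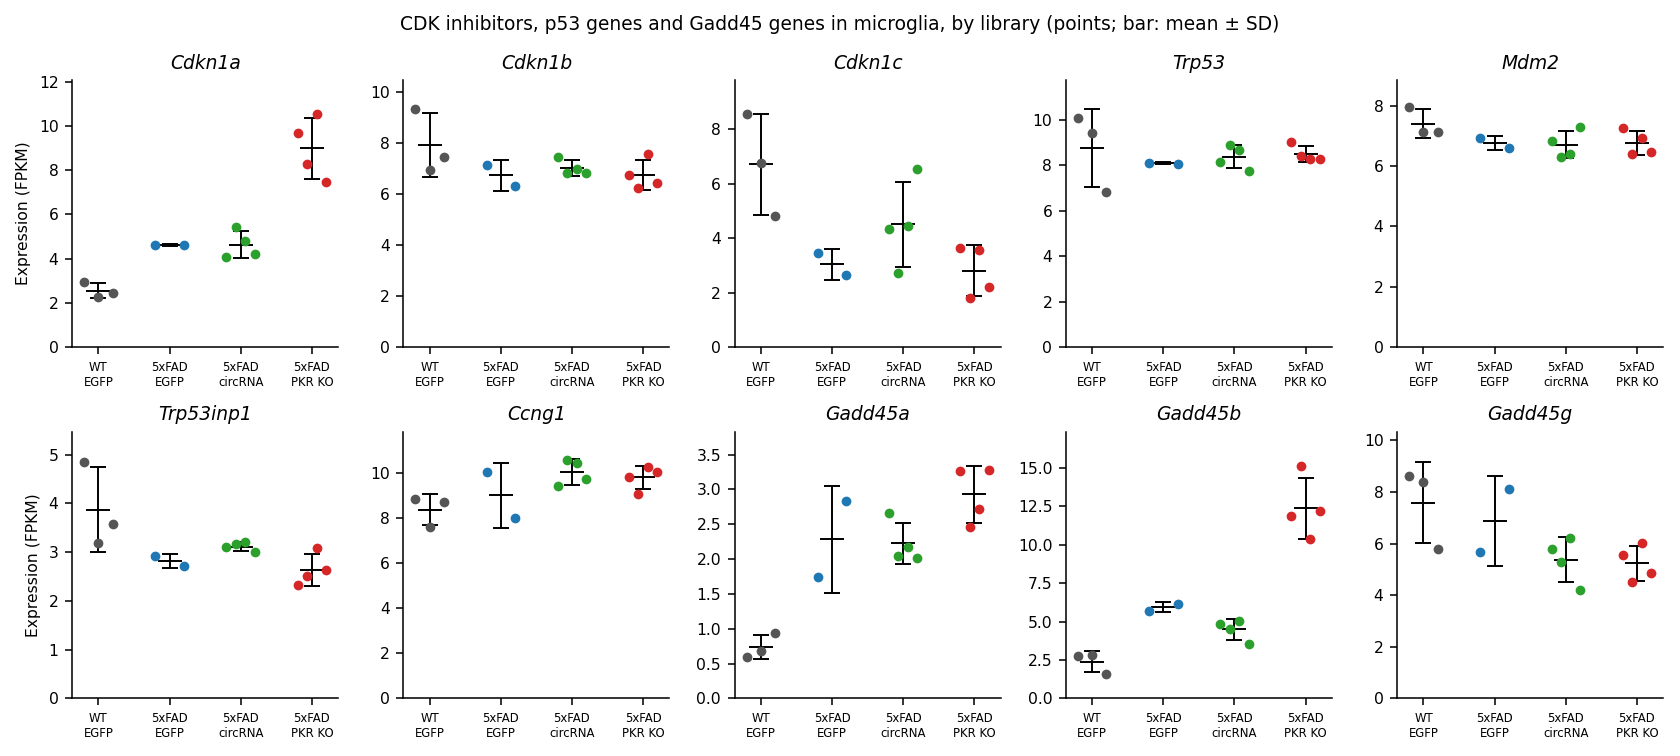
FPKM of each of the 10 genes in each library (points), by group, with the group mean and SD as bars. Cdkn1a and Gadd45b in PKR KO lie above every other library (7.47 to 10.6 FPKM and 10.4 to 15.1 FPKM), and Gadd45a in wild type lies below every 5xFAD library (0.600 to 0.932 FPKM).

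Over the 9 libraries without PKR KO, the highest library of Trp53, Mdm2, Ccng1 and Trp53inp1 was 1.47, 1.27, 1.39 and 1.78 times the lowest. By the same measure Cdkn1a and Gadd45a, which are p53 targets too, ranged 2.40-fold and 4.72-fold. Trp53 (chr11:69580359-69591873, plus strand) was at 10.1, 9.42 and 6.84 FPKM in WT EGFP, 8.12 and 8.06 FPKM in 5xFAD EGFP, 7.77 to 8.90 FPKM in 5xFAD circRNA, and 8.26 to 9.02 FPKM in PKR KO. Wild type replicates 1 and 3 were the highest and the lowest of the 13 libraries. The 4 PKR KO libraries lay above the 2 of 5xFAD EGFP, by 0.06 (SE 0.12) on the log2(FPKM + 1) scale, a value that was 0.01 with the same FPKM sum and 0.14 with the replicate number as a block. Mdm2 (chr10:117688875-117710758, minus strand), both a p53 target and its inhibitor, was at 7.96, 7.12 and 7.14 FPKM in WT EGFP and 6.94 and 6.60 FPKM in 5xFAD EGFP. It was at 6.84, 6.29, 6.41 and 7.29 FPKM in 5xFAD circRNA and 7.27, 6.42, 6.93 and 6.46 FPKM in PKR KO. Its mean was 6.77 ± 0.24 FPKM (SD, n = 2) in 5xFAD EGFP and 6.77 ± 0.41 FPKM (SD, n = 4) in PKR KO. The Mdm2 difference between these groups was −0.00 (SE 0.08), and these groups overlapped. Both 5xFAD EGFP libraries lay below wild type, with a difference of −0.11 (limma adjusted p = 0.428) that passed with the same FPKM sum (limma adjusted p = 0.0353). In 5xFAD circRNA against wild type it was −0.13 (limma adjusted p = 0.211). That difference passed with quantile normalization, median-ratio scaling and the same FPKM sum (limma adjusted p = 0.0362, 0.0481 and 0.00160).

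Ccng1 (chr11:40748552-40755311, minus strand), which encodes cyclin G1, a p53 target, was at 8.85, 7.61 and 8.72 FPKM in WT EGFP and 10.0 and 8.02 FPKM in 5xFAD EGFP. It was at 9.42, 10.6, 10.5 and 9.76 FPKM in 5xFAD circRNA and 9.85, 9.11, 10.3 and 10.1 FPKM in PKR KO. The circRNA libraries all lay above wild type, by 0.24 (SE 0.08), which did not pass the test (limma adjusted p = 0.0553) and was −0.03 when libraries were scaled to the same FPKM sum. Trp53inp1 (chr4:11156431-11174379, plus strand), whose product promotes p53 activity and autophagy, was at 4.85, 3.18 and 3.58 FPKM in WT EGFP and 2.93 and 2.72 FPKM in 5xFAD EGFP. It was at 3.00 to 3.21 FPKM in 5xFAD circRNA and 2.33 to 3.09 FPKM in PKR KO. Its libraries in 5xFAD EGFP and in PKR KO lay below all of wild type. The Trp53inp1 difference in 5xFAD EGFP against wild type was −0.33 (SE 0.12, limma adjusted p = 0.0976), and it passed without WT EGFP replicate 2 (limma adjusted p = 0.0308) and with the same FPKM sum (limma adjusted p = 0.00800). Without WT EGFP replicate 1 it was −0.20 (limma adjusted p = 0.238), and with either 5xFAD EGFP library left out it did not pass (limma adjusted p = 0.217 and 0.397).

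Of the Gadd45 genes, Gadd45b (chr10:80930073-80932204, plus strand) had the widest range of levels in FPKM over all 13 libraries, including the PKR KO values used in the selection. Without PKR KO, the highest library was 4.72 times the lowest for Gadd45a and 3.80 times for Gadd45b. Gadd45b was at 2.74, 2.82 and 1.62 FPKM in WT EGFP, 5.71 and 6.17 FPKM in 5xFAD EGFP, 4.84, 4.49, 5.07 and 3.55 FPKM in 5xFAD circRNA, and 11.9, 15.1, 10.4 and 12.2 FPKM in PKR KO. No 2 of the 4 groups overlapped, in the order wild type, 5xFAD circRNA, 5xFAD EGFP and PKR KO. Gadd45b rose in 5xFAD EGFP against wild type from 2.40 ± 0.67 (SD, n = 3) to 5.94 ± 0.33 FPKM (SD, n = 2), by 1.05 (SE 0.18, limma adjusted p = 0.00229). It rose in 5xFAD circRNA by 0.70 (SE 0.15, limma adjusted p = 0.00442). The neighbours 5xFAD circRNA and 5xFAD EGFP differed by −0.35 (SE 0.17), which did not pass the test (limma adjusted p = 0.739). In PKR KO the mean was 12.4 ± 1.98 FPKM (SD, n = 4), 2.09 times that in 5xFAD EGFP and 5.17 times that in wild type.

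Gadd45a (chr6:67035096-67037457, minus strand), the member of the family best known as a p53 target, was the lowest of the 10 genes in wild type. It was at 0.600, 0.678 and 0.932 FPKM in WT EGFP, 1.74 and 2.83 FPKM in 5xFAD EGFP, 2.66, 2.05, 2.17 and 2.02 FPKM in 5xFAD circRNA, and 3.27, 2.46, 2.72 and 3.28 FPKM in PKR KO. Every 5xFAD library lay above every wild type library, and the 5xFAD groups overlapped each other. Gadd45a rose against wild type by 0.90 in 5xFAD EGFP (SE 0.15, limma adjusted p = 0.00181, FPKM ratio 3.10) and by 0.89 in 5xFAD circRNA (SE 0.12, limma adjusted p = 0.000230). The difference of PKR KO from 5xFAD EGFP was 0.27 (SE 0.14), and it rested on which 5xFAD EGFP library was kept, at 0.03 without replicate 1 and 0.52 without replicate 2. Gadd45g (chr13:51846678-51848468, plus strand) was at 8.60, 8.37 and 5.78 FPKM in WT EGFP and 5.66 and 8.12 FPKM in 5xFAD EGFP. It was at 4.19 to 6.23 FPKM in 5xFAD circRNA and 4.52 to 6.04 FPKM in PKR KO. The Gadd45g difference in 5xFAD circRNA against wild type was −0.42 (SE 0.16, limma adjusted p = 0.0661), and it passed without WT EGFP replicate 3 (limma adjusted p = 0.0144) but not without any other single library of the 2 groups (limma adjusted p = 0.0581 to 0.200). With the same 3 scalings as for Cdkn1c it passed as well (limma adjusted p = 0.0295, 0.0280 and 0.00388). Its mean FPKM was above that of Gadd45b in WT EGFP, 5xFAD EGFP and 5xFAD circRNA and below it in PKR KO.

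The first comparison asks what the 5xFAD genotype is associated with when both groups carry the EGFP vector. Of the 10 genes, 3 rose (Cdkn1a, Gadd45a and Gadd45b), 0 fell and 7 did not pass the test, with a median difference of −0.10 against −0.03 over all 10817 genes tested. Over those genes, 7.65% were called higher, 6.35% lower and 14% in either direction. Without overlap between the groups, 3 members were higher and 3 lower, where 16.5% of all genes were higher, 21.1% lower and 37.6% either. The same 3 genes passed the test in 5xFAD circRNA against wild type, where 17.8% of all genes were called higher, 8.05% lower and 25.8% either. The members' median there was −0.09 against 0.02 over all genes, and 4 members were higher and 0 lower without overlap, where 20.2% of all genes were higher, 8% lower and 28.2% either. Both comparisons share the wild type libraries. Scaling each library to the same FPKM sum moved the median of all genes to −0.17 and −0.20 in these comparisons. Without WT EGFP replicate 3, the differences from wild type in 5xFAD EGFP and 5xFAD circRNA were 0.65 and 0.65 for Cdkn1a, 0.98 and 0.97 for Gadd45a and 0.87 and 0.53 for Gadd45b, and all passed the test. Under the same-sum scaling 7 and 9 members passed the test, the additional ones all lower than wild type, while Cdkn1a, Gadd45a and Gadd45b still passed as higher. Of all 10817 genes, 3709 and 5676 passed under this scaling, 3001 and 4681 of them as lower.

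**Figure D2:**
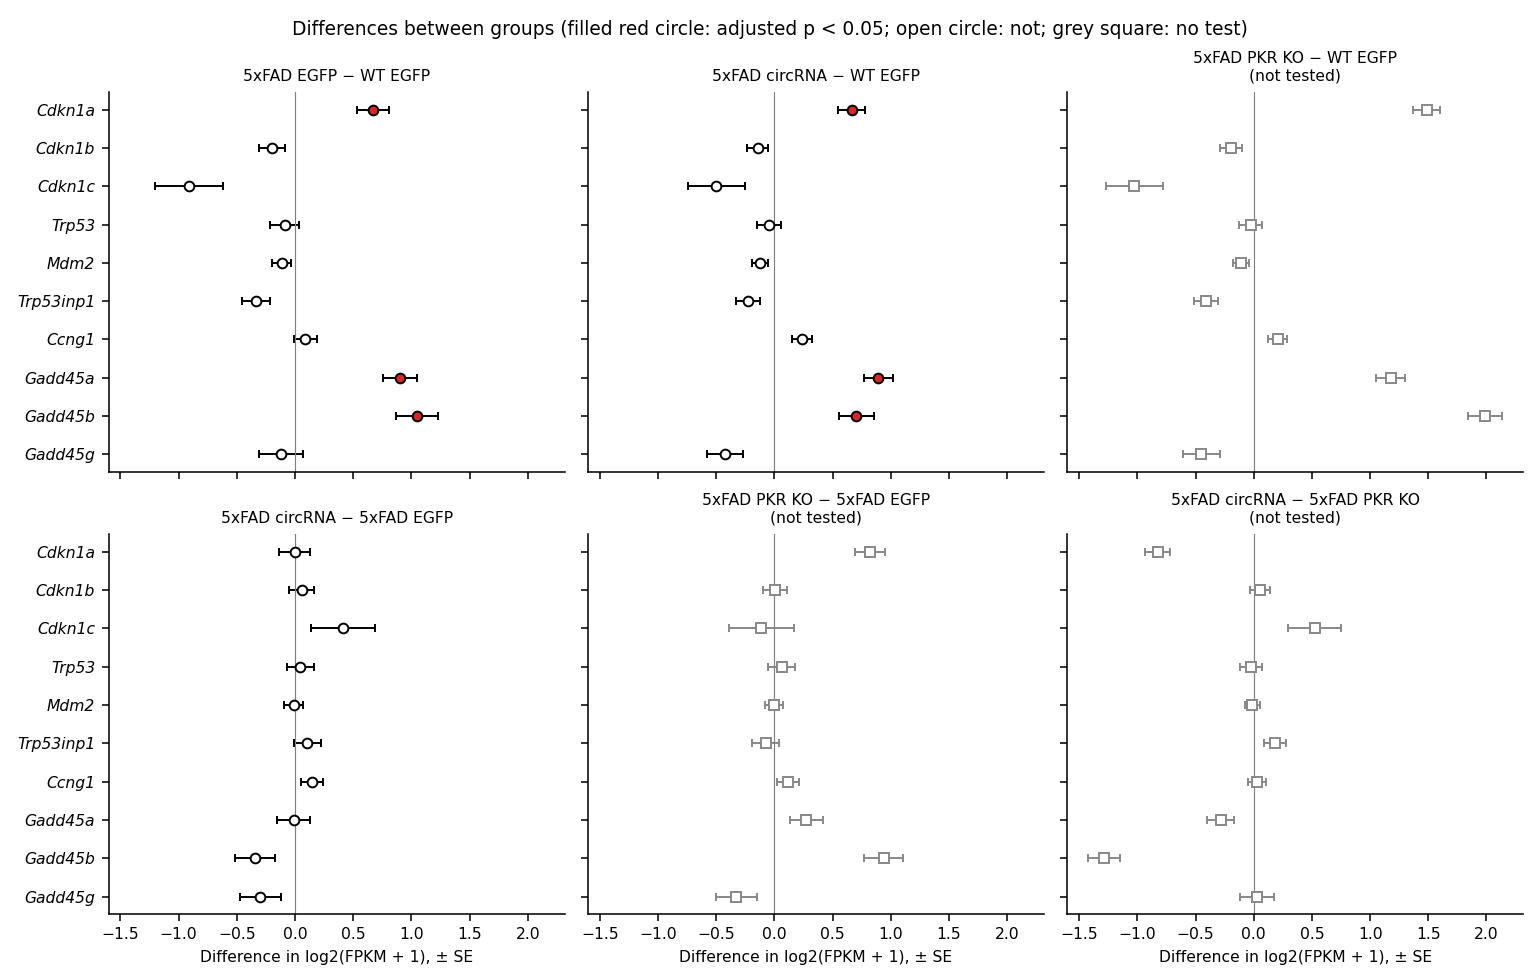
Differences between group means on the log2(FPKM + 1) scale, with SE as bars, for the 10 genes in the 6 comparisons. Red circles passed the test and open circles did not, and grey squares are comparisons with PKR KO, in which these genes were not tested. Cdkn1a, Gadd45a and Gadd45b are the red points, at 0.66 to 1.05.

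The second comparison asks whether the circRNA vector changed these genes in 5xFAD microglia. With limma, 0 of the 10 genes passed the test, 0 had an unadjusted p under 0.05, and 0% of all genes were called. Of all 10817 genes, 523 had an unadjusted p under 0.05. Trp53inp1 was higher and Gadd45b lower without overlap, where 16.6% of all genes were higher, 2.65% lower and 19.3% either. Cdkn1a differed by −0.00, with a 95% interval of −0.29 to 0.28. Gadd45a differed by −0.01, with an interval of −0.32 to 0.30. The interval for Gadd45b was −0.71 to 0.02 and that for Gadd45g −0.68 to 0.08, so decreases of that size are not excluded by these intervals. The widest interval was that of Cdkn1c, −0.19 to 1.02.

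PKR KO and 5xFAD EGFP differ in the knockout and in the vector as far as the labels name it. They also differ in library naming, since the labels give library names for the PKR KO samples alone. Depth differed too, at 57.7 M to 70.0 M against 53.5 M to 54.9 M fragments, and these differences cannot be told apart. The set was selected because Cdkn1a and Gadd45b were higher in PKR KO. Their part in each count without overlap below follows from that choice and tests nothing. Without overlap, Cdkn1a, Gadd45b and Trp53 were higher in PKR KO and 0 members were lower, where 17.7% of all genes were higher, 17% lower and 34.8% either. The other 7 overlapped, with differences between −0.33 for Gadd45g and 0.27 for Gadd45a. The Gadd45g difference was −0.55 without 5xFAD EGFP replicate 1 and −0.10 without replicate 2, and that of Ccng1 went from 0.12 to 0.26 and −0.03. By adjusted p, 0.0832% of all genes were called, all of them higher in PKR KO, while a fit of these 2 groups alone called 212 higher and 365 lower and 10 of the 14 alternatives called 0. Against 5xFAD circRNA, Cdkn1a was 0.515 times and Gadd45b 0.362 times as high as in PKR KO in FPKM, and the other 8 genes overlapped. Of all genes, 15.1% were higher with circRNA without overlap, 4.44% lower and 19.5% either. Against wild type, PKR KO was higher without overlap for Cdkn1a, Gadd45a, Gadd45b and Ccng1 and lower for Cdkn1c and Trp53inp1, where 19.8% of all genes were higher, 21.1% lower and 40.9% either. The Ccng1 difference of 0.21 became −0.00 when libraries were scaled to the same FPKM sum.

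Genes induced rapidly by stimulation or by tissue dissociation, such as Fos, Jun, Egr1, Atf3 and Dusp1, were also highest in PKR KO by their summed level. All 20 genes of this list were detected in every group, with summed levels of 1208 to 1981 FPKM in WT EGFP, 1960 to 2096 FPKM in 5xFAD EGFP, 1365 to 1898 FPKM in 5xFAD circRNA and 2329 to 2923 FPKM in PKR KO. The 4 PKR KO libraries were the highest of the 13. Against 5xFAD EGFP, 12 of the 20 were higher and 2 lower without overlap and 0 passed the test. Of all genes, 17.7% were higher and 17% lower without overlap there. Against wild type 16 passed as higher and 2 as lower, and 13 were called lower in 5xFAD circRNA than in PKR KO. The shares of all genes called were 17.5% higher and 19.4% lower against wild type, and 1.91% lower with circRNA. In 5xFAD EGFP against wild type 8 of the 20 rose and 0 fell, and in 5xFAD circRNA against wild type 5 rose and 0 fell. Of all genes, 7.65% and 17.8% were called higher in these comparisons. Between 5xFAD circRNA and 5xFAD EGFP 0 passed by limma and 6 were lower without overlap, as were 2.65% of all genes. The list's median was −0.33, where Gadd45b differed by −0.35 and Cdkn1a by −0.00. The part of the listed genes in the levels of Cdkn1a and Gadd45b was not tested.

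Markers of other cells moved as well. Oligodendrocyte markers, with 10 of 10 detected in every group, summed to 378 to 1660 FPKM in WT EGFP, where replicate 3 was the highest of all libraries. They summed to 707 to 750 FPKM in 5xFAD EGFP, 325 to 851 FPKM in 5xFAD circRNA and 237 to 401 FPKM in PKR KO. Neuronal markers, of which 9 of 10 were in the table and above 0 in every group, summed to 7.97 to 27.1 FPKM in WT EGFP, 19.2 to 22.4 in 5xFAD EGFP, 5.89 to 19.1 in 5xFAD circRNA and 8.07 to 14.0 in PKR KO. All 4 neuronal markers tested were lower in PKR KO than in 5xFAD EGFP without overlap, and 0 passed the test. The 10 astrocyte markers, all detected in every group, summed to 118 to 425 FPKM in WT EGFP, 185 to 259 in 5xFAD EGFP, 159 to 300 in 5xFAD circRNA and 164 to 262 in PKR KO. In PKR KO against 5xFAD EGFP, 3 of the 10 were lower without overlap and 0 passed the test, and all 10 oligodendrocyte markers were lower without overlap with 0 passing. Of all genes, 17% were lower without overlap in that comparison. Border macrophage markers, with 10 of 10 detected, summed to 105 to 158 FPKM in WT EGFP and 40.7 to 68.0 FPKM over the 5xFAD libraries, and all 9 tested fell in 5xFAD EGFP against wild type. Endothelial and mural markers, with 10 of 10 detected, summed to 98.0 to 214 FPKM in WT EGFP, 38.4 to 64.0 FPKM in 5xFAD EGFP, 56.3 to 104 FPKM in 5xFAD circRNA and 54.0 to 87.6 FPKM in PKR KO, and 8 of 9 tested fell in 5xFAD EGFP. Of all genes, 6.35% were called lower in 5xFAD EGFP against wild type. Proliferation genes, with 10 of 10 detected, summed to 4.96 to 5.60 FPKM in WT EGFP and 8.87 to 12.5 FPKM over the 5xFAD libraries. Of the neutrophil and lymphocyte markers, 9 of 10 were in the table, with Ly6g and Ms4a1 listed at 0 in 5xFAD EGFP, and PKR KO replicate 4 had the highest sum at 16.7 FPKM. Fewer cells of a type and less RNA per cell cannot be told apart in bulk samples, and the part of these cells in the members' differences was not tested.

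**Figure D3:**
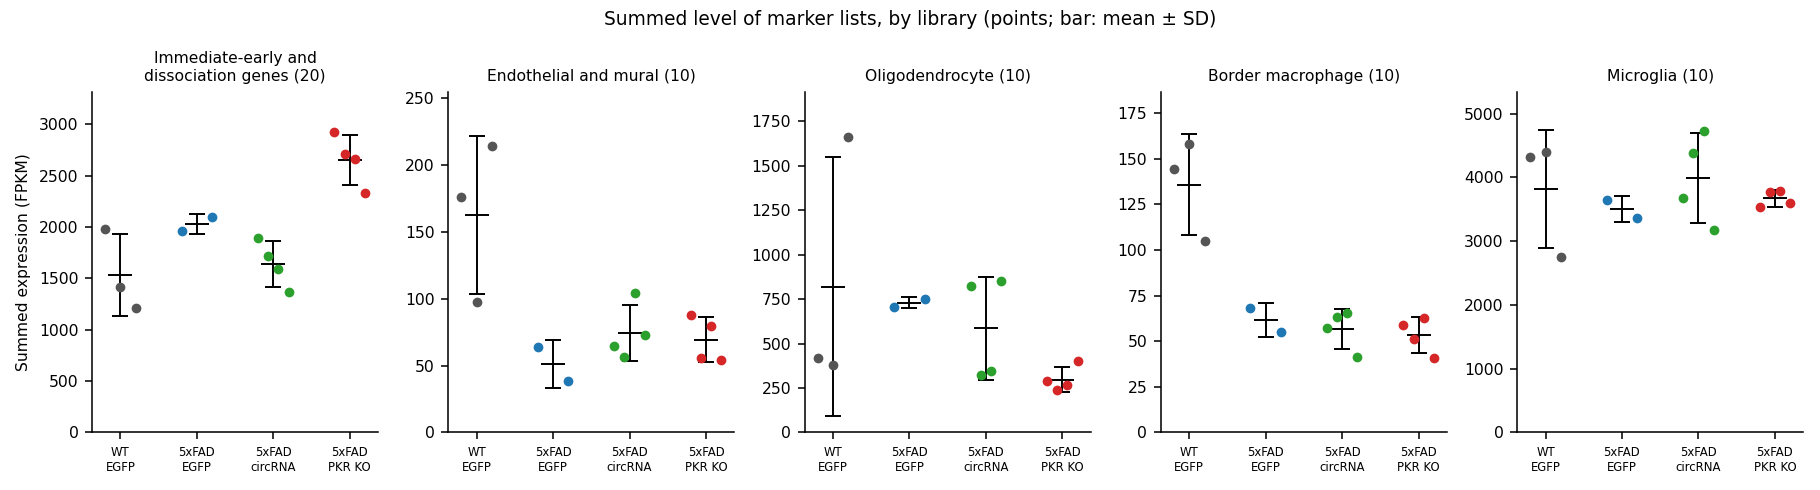
Summed FPKM of 5 marker lists in each library (points), with the group mean and SD as bars and the number of genes in brackets. The immediate-early and dissociation genes are highest in the 4 PKR KO libraries (2329 to 2923 FPKM), and border macrophage markers are highest in the 3 wild type libraries (105 to 158 FPKM).

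A list of 66 other genes around p53, p21 and GADD45 was examined, of which 47 had a mean of at least 1 FPKM and were tested. In 5xFAD EGFP against wild type 3 rose, 2 fell and 42 did not pass the test, so 10.6% of the list was called against 14% of all genes, with a median of −0.01 against −0.03. The mitochondrial death gene Pmaip1 (NOXA) rose from 1.13 ± 0.29 (SD, n = 3) to 3.30 ± 0.50 FPKM (SD, n = 2), by 1.02 (limma adjusted p = 0.000455). Tigar, a regulator of glycolysis, rose from 0.981 ± 0.069 to 2.06 ± 0.18 FPKM (limma adjusted p = 0.00186). The INK4 inhibitor Cdkn2c rose by 0.37 (limma adjusted p = 0.0435), a call that was lost without any one of 4 libraries (WT EGFP replicates 1 and 2 and both of 5xFAD EGFP, limma adjusted p = 0.0670 to 0.317) and with quantile normalization (limma adjusted p = 0.161). The death receptor gene Fas fell from 1.98 ± 0.73 to 0.539 ± 0.200 FPKM (limma adjusted p = 0.00763), and the call was lost without 5xFAD EGFP replicate 2 (limma adjusted p = 0.105). Polk, a DNA polymerase for damaged templates, fell by 0.59 on the log2 scale (limma adjusted p = 0.0289) and lost its call without any one of 4 libraries (WT EGFP replicates 1 and 3 and both of 5xFAD EGFP). Of the 9 regulators of p53 and of the 6 GADD45 partners, 0 passed in this comparison by limma, with 1 of each at an unadjusted p under 0.05. Of all 10817 genes, 2836 had such a p.

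In 5xFAD circRNA against wild type, 7 of the 47 rose, 6 fell and 34 did not pass, which is 27.7% against 25.8% of all genes. Pmaip1 and Tigar rose here too, by 0.84 and 0.69 (limma adjusted p = 0.000202 and 0.000104). The replication clamp gene Pcna rose by 0.61, the cell death gene Bax by 0.51 and Cdkn2c by 0.52. Fas fell by 0.71, the cyclin gene Ccnd2 by 0.50, Polk by 0.41, the p38 kinase gene Mapk14 by 0.32 and the damage recognition gene Ddb2 by 0.29. Of these, Ccnd2, Polk, Mapk14 and Ddb2 lost their calls without WT EGFP replicate 1 (limma adjusted p = 0.0865, 0.127, 0.183 and 0.0785), and each also without at least 1 other library. The call of Bax was lost with the same FPKM sum, where the difference was 0.24 (limma adjusted p = 0.0815). Against 5xFAD EGFP, the circRNA group gave 0 calls in the list, with 1 gene at an unadjusted p under 0.05, where 523 of all 10817 genes were.

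**Figure D4:**
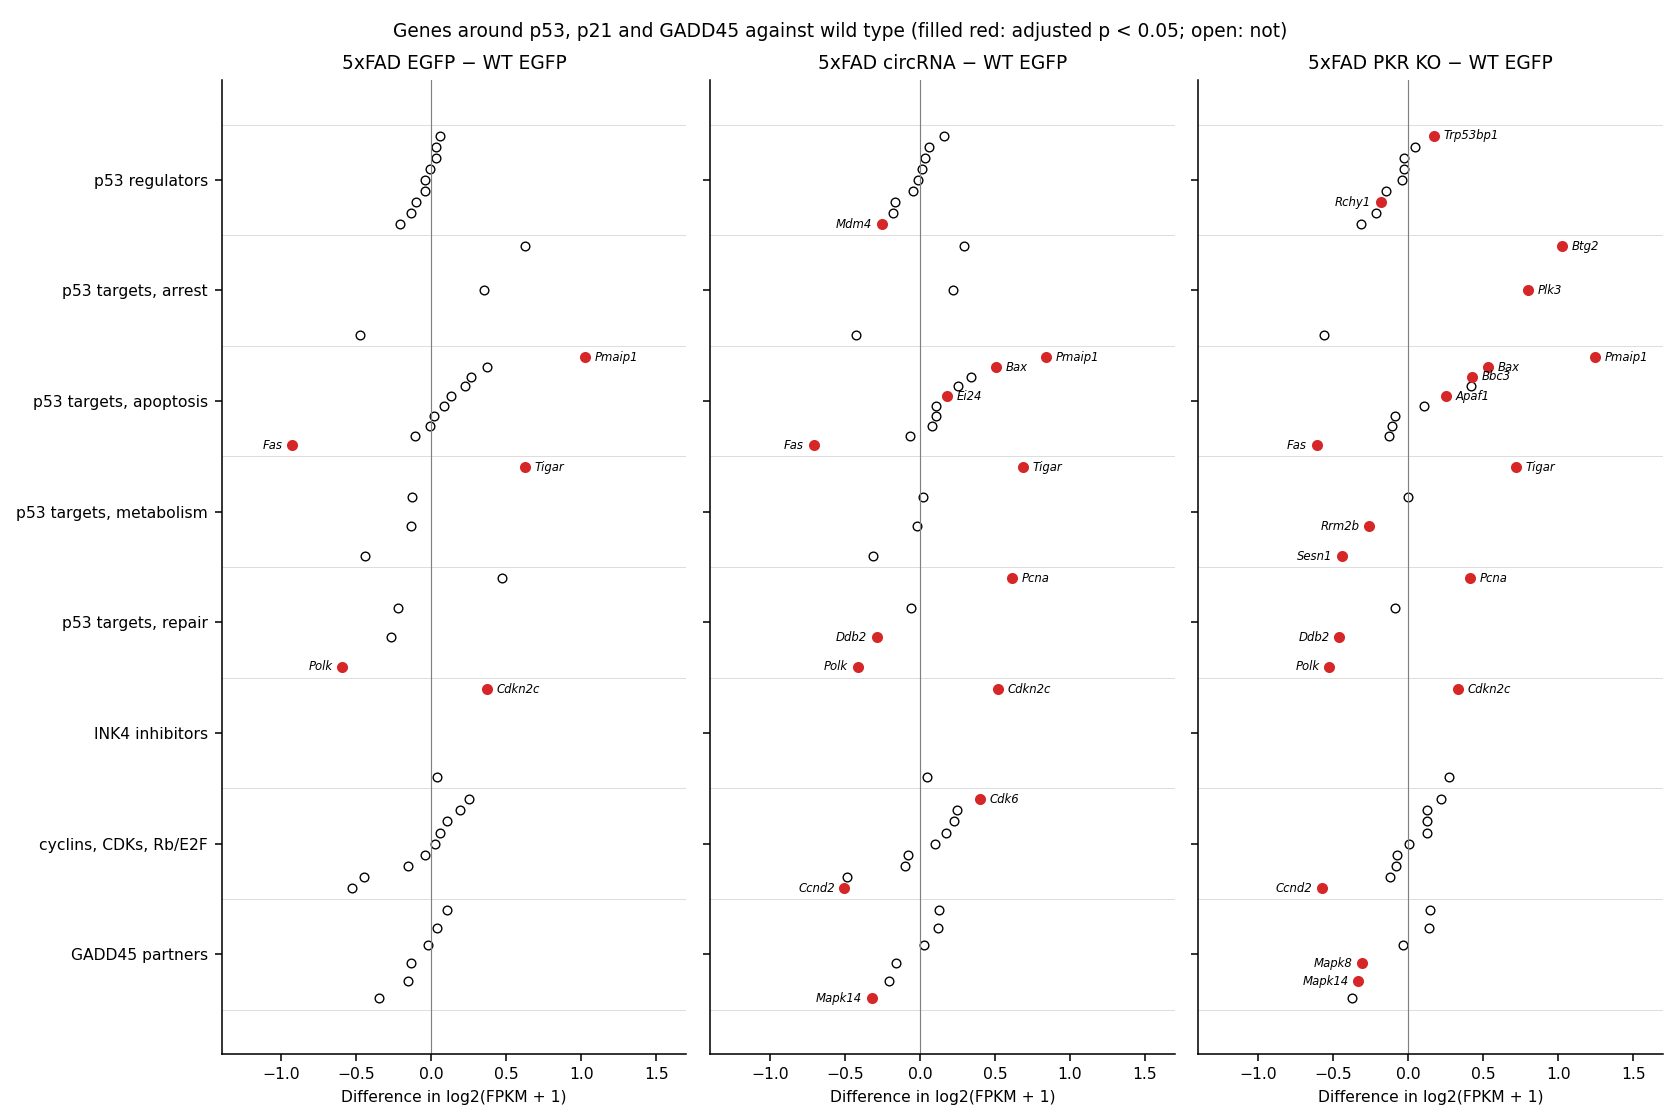
Differences from wild type on the log2(FPKM + 1) scale for the 47 tested genes of the list, by role, in the 3 5xFAD groups. Red points passed the test and are named; Pmaip1, Tigar and Cdkn2c are on the right and Fas and Polk on the left in each panel, and Btg2 and Plk3 are among the red points with PKR KO.

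In PKR KO against wild type 10 of the 47 rose, 9 fell and 28 did not pass, which is 40.4% against 37% of all genes (17.5% higher and 19.4% lower), with a median of −0.03 against −0.05. Pmaip1 rose by 1.24, from 1.13 to 4.02 ± 0.51 FPKM (SD, n = 4). Btg2, an antiproliferative gene, rose by 1.02, from 77.9 ± 22.3 to 155.9 ± 12.3 FPKM (limma adjusted p = 0.00144). The stress kinase gene Plk3 rose by 0.80, Tigar by 0.72 and Bax by 0.53. Fas fell by 0.61, Ccnd2 by 0.58, Polk by 0.53, Ddb2 by 0.46 and the p53 target Sesn1 by 0.44. Fas and Sesn1 lost their calls without WT EGFP replicate 1 (limma adjusted p = 0.0517 and 0.0704). PKR KO against 5xFAD EGFP gave 0 calls in the list by limma, with 3 genes at an unadjusted p under 0.05, namely Trp53bp1 and Plk3 higher and Ei24 lower, chosen after their values were seen. Of all 10817 genes, 1404 had an unadjusted p under 0.05 there.

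Between 5xFAD circRNA and PKR KO, 5 of the 47 passed the test, 10.6% against 6.19% of all genes (4.28% higher and 1.91% lower with circRNA). Btg2 was lower with circRNA, with a difference of −0.73, as were Plk3 at −0.58 and Pmaip1 at −0.40 (limma adjusted p = 0.0343, 0.0234 and 0.0462), and Ei24 and Rrm2b were higher by 0.29 and 0.24 (limma adjusted p = 0.0128 and 0.0240). Leaving out single libraries left 1 to 3 calls. The call of Ei24 held in all 16 alternatives run, while Btg2, Plk3, Pmaip1 and Rrm2b lost theirs without circRNA replicate 1 (limma adjusted p = 0.0509, 0.0697, 0.0985 and 0.0708), among others.

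Variation within groups was described by the deviations of each library from its group mean over the 13 libraries, which share the FPKM scaling of each library. Cdkn1a and Gadd45b, on which the set was selected, were not alike in this measure (Pearson r = −0.14). Of the 10816 other genes tested, those most like Gadd45b were Cxcl16 (r = 0.96), Pfkfb3 (0.96), Ebi3 (0.96), Osm (0.95) and Etv3 (0.94). Osm, a cytokine gene, was at 2.42 to 4.79 FPKM in WT EGFP, 10.5 to 12.1 in 5xFAD EGFP, 7.94 to 10.9 in 5xFAD circRNA and 18.0 to 28.0 in PKR KO. Cxcl16, a chemokine gene, was at 4.60 to 7.63 FPKM in WT EGFP, 16.8 to 18.4 in 5xFAD EGFP, 16.4 to 21.5 in 5xFAD circRNA and 21.5 to 28.9 in PKR KO. Pfkfb3, a glycolysis gene, had group means of 20.8, 37.3, 38.1 and 50.5 FPKM in the same order of groups. The means of Ebi3 were 8.50, 7.61, 7.87 and 7.88 FPKM, highest in wild type, and those of Etv3 were 5.51, 6.07, 6.05 and 6.64 FPKM. Likeness within groups thus did not always come with the group order of Gadd45b. Those most like Cdkn1a were Gimap6 (0.94), Ppcs (0.88), Notch4 (0.88), Ercc2 (0.87) and Bcat2 (0.86). None of these 5 had the group order of Cdkn1a. Gimap6, Notch4 and Ercc2 had their highest mean in WT EGFP (3.97, 6.42 and 5.34 FPKM), Ppcs in 5xFAD circRNA (1.94 FPKM) and Bcat2 in PKR KO (4.04 FPKM), with a Bcat2 mean of 3.55 FPKM in WT EGFP and 3.54 FPKM in 5xFAD EGFP. These correlations are descriptions over libraries and carry no test.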

How the data were processed

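The authors deposited 1 table of FPKM values, 1 column for each library and not pooled. Per the labels' protocols, RNA was extracted with TRIzol, depleted of ribosomal RNA, made into stranded libraries (TruSeq Stranded Total RNA Gold) and sequenced on a NovaSeq instrument. The submitters' processing notes name HISAT2 2.1.0, Bowtie2 2.3.5, featureCounts 1.5.1 and build mm10. The annotation and the strand setting of the counting are not given in the sources used here. Antisense exons overlap 7.68% of Cdkn1a, 30.7% of Cdkn1c and 19.1% of Gadd45a exonic bases in GENCODE M21, so reads there could be shared. FPKM is relative to a library's total, so abundant genes that change can move others.

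Groups were taken from the sample titles. Depth was recovered from the low values and exon lengths (19394 of 19737 genes with a length), which came out as whole fragments within 0.02 for 90.8% to 92.9% of low values. It covers counting error only. limma 3.58.1 (R 4.3.3) with an intensity trend was run on log2(FPKM + 1). Genes had to average 1 FPKM or more, which 10817 did, all 10 members included. All 13 libraries entered 1 fit with 9 residual degrees of freedom, and p-values were adjusted by Benjamini-Hochberg within each comparison (threshold 0.05). This scale understates the change of low genes. Named pathway genes were up to the 5 largest calls in each direction of a comparison. The genes most like a member were the 5 with the highest Pearson correlation. Alternatives were another pseudocount, no filter, other scalings, voom on recovered fragments, the 2 groups alone, the replicate block and each library left out. The members, lists and tests were chosen with earlier results of these data known.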

Additional observations from a re-analysis of the deposited data

How the results depend on the processing

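Of the 3 genes called in 5xFAD EGFP against wild type, each passed in the 11 of 11 alternatives that kept both 5xFAD EGFP libraries. In the other 2, where the other groups alone supply the spread, Gadd45a and Gadd45b passed and Cdkn1a did not (limma adjusted p = 0.0528 and 0.0641). All 3 passed in 15 of 15 alternatives in 5xFAD circRNA against wild type. The number of members called against wild type rose from 3 to 7 in 5xFAD EGFP with the same FPKM sum, and from 3 to 6, 6 and 9 in 5xFAD circRNA with quantile normalization, median-ratio scaling and the same sum. Over all 10817 genes, the calls in these fits went from 1514 to 3709, and from 2796 to 3163, 3279 and 5676. Leaving out single libraries gave 2 to 4 and 3 to 4 members. The calls in the list of 47 genes against wild type went from 5 to 15 with the same sum and 2 with the 2 groups alone (2 to 6 with single libraries left out) in 5xFAD EGFP, and from 13 to 28 and 7 in 5xFAD circRNA. Between 5xFAD circRNA and PKR KO they went from 5 to 1 to 3 with single libraries left out. With no filter all 66 listed genes were tested, and 30 passed in PKR KO against wild type, 19 of them among the 47 and 11 among the 19 others. Over all 18291 genes of that fit, 5691 passed. In 5xFAD EGFP and 5xFAD circRNA against wild type, 7 and 18 of the 66 passed, 4 and 8 of them among the 19 others. Of all genes, 1899 and 3568 passed there. In 5xFAD circRNA against PKR KO 3 of the 66 passed with no filter, all 3 among the 47, where 449 of all genes passed. The members' median difference went from −0.07 to −0.279 with the same sum in PKR KO against wild type (−0.158 to 0.00192 with single libraries left out), and from 0.01 to −0.0565, −0.0804 and −0.0418 in 5xFAD circRNA against PKR KO with quantile, median-ratio and same-sum scaling. Ccng1 in PKR KO against wild type turned from 0.21 to −0.0045 with the same sum. The causes were not tested.

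The split of all calls moved with the scaling. With the same sum, 708 were higher and 3001 lower in 5xFAD EGFP against wild type, where the fit described had 827 and 687. In 5xFAD circRNA against wild type the split went from 1925 and 871 to 995 and 4681, and in PKR KO against wild type from 1898 and 2099 to 1174 and 5421. Between 5xFAD circRNA and PKR KO it went from 463 higher and 207 lower to 260 and 681 with median-ratio scaling. The calls in PKR KO against 5xFAD EGFP numbered 9 (all higher), 577 with the 2 groups alone (212 higher and 365 lower), 46 with median-ratio scaling (41 higher and 5 lower), and 0 in 10 of the 14 alternatives, namely pseudocount 0.1, no filter, quantile normalization, the same sum, voom, and with either 5xFAD EGFP library or PKR KO replicate 2, 3 or 4 left out. Without PKR KO replicate 1 there were 2.

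Replicate numbers were not shown to pair the libraries. Deviations of same-numbered libraries correlated between −0.42 and 0.69 in 5xFAD circRNA against wild type, between −0.18 and 0.58 in PKR KO against wild type and between 0.04 and 0.55 in 5xFAD circRNA against PKR KO. In PKR KO against 5xFAD EGFP the 2 same-numbered pairs correlated at 0.27 and 0.38, too few pairs to establish a pairing, and the replicate block moved the calls over all genes from 9 to 22. With the replicate block, 3 calls in place of 5 were left in the list between 5xFAD circRNA and PKR KO, where Rrm2b and Pmaip1 lost theirs (limma adjusted p = 0.0551 and 0.0532). Cdkn2c in 5xFAD EGFP against wild type and Mapk14 in 5xFAD circRNA against wild type also lost their calls under it (limma adjusted p = 0.0661 and 0.109), and the members called against wild type numbered 3 and 3 as before.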

Other observations

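Among the 19 genes of the list below the filter, and so outside the tests described, was Cdkn2a, which encodes p16 and ARF, an inhibitor of MDM2. It was singled out after its values were seen. Its level was 0.092 ± 0.066 FPKM in WT EGFP (SD, n = 3), 0.472 ± 0.058 in 5xFAD EGFP (SD, n = 2), 0.649 ± 0.209 in 5xFAD circRNA (SD, n = 4) and 0.879 ± 0.179 in PKR KO (SD, n = 4). Cdk1, the mitotic kinase, was also below the filter, at 0.162 ± 0.027 FPKM in WT EGFP (SD, n = 3), 0.575 ± 0.061 in 5xFAD EGFP (SD, n = 2), 0.713 ± 0.122 in 5xFAD circRNA (SD, n = 4) and 0.693 ± 0.151 in PKR KO (SD, n = 4). The p53 relatives Trp63 and Trp73 had their highest group means in WT EGFP, at 0.0996 and 0.746 FPKM. No test is given for these 4 genes.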
